A study of Mus musculus with 7 samples.

Results

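The RNAs described here are 7 abundant noncoding RNAs that either stay in the nucleus or lack a poly(A) tail: Rn18s-rs5, Rn7sk, Malat1, Neat1, Bc1, Rmrp and Rpph1. They are 7 of the 56791 gene symbols in the deposited expression table and fill 8 of its 56941 rows, since Rmrp is listed on 2 rows. They were chosen by name, and the values of several of them in these samples were known when the choice was made, so their differences between the groups and their covariation are given as a description, without a test. The samples were 3 cortices from P213L mice, which carry the P213L variant of the X-linked gene Hnrnph2, and 4 cortices from wild-type (WT) mice, all taken on postnatal day 7. Hnrnph2 encodes a heterogeneous nuclear ribonucleoprotein, an RNA-binding protein that acts in splicing. The labels give no strain, sex, further allele or origin of the variant, and nothing in them says that samples of a group came from separate animals, so the spread between samples may in part be technical. Levels are in TPM (transcripts per 1000000), in which read numbers are corrected for gene length and every library is scaled to the same total.

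Most of a cell's RNA is ribosomal, and much of the rest of its noncoding RNA is made by RNA polymerase III or processed at its 3′ end without the poly(A) tail of messenger RNAs. Libraries of the kind used here capture RNA by its poly(A) tail, so such RNAs are expected to be depleted, to a degree that depends on the library and on stretches of A inside each RNA. Rn18s-rs5 is a genomic copy of 18S ribosomal RNA, the RNA of the small ribosomal subunit. Rn7sk, the 7SK RNA, holds the elongation factor P-TEFb inactive in the nucleus. Malat1 is a long RNA of nuclear speckles and Neat1 is the scaffold of paraspeckles, another nuclear body. Bc1 is a short cytoplasmic RNA of rodent neurons that is carried into dendrites and represses translation. Rmrp is the RNA of RNase MRP, which cuts ribosomal RNA precursors, and Rpph1 that of RNase P, which trims the 5′ ends of transfer RNAs.

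The reference sequences show how much each RNA offers to an oligo-dT capture, a property that the choice of members did not use. For each gene the longest GENCODE vM21 transcript (mm10 build) is shown 5′ to 3′ around the window of 20 bases with the most A. For Rn18s-rs5 this is a transcript of the GENCODE gene Gm42418, which covers only part of the RefSeq span of Rn18s-rs5. The capitals mark that window, except in Bc1, shown whole, where they mark the longest run of A, and in the last line, where they mark the 3′ end of Neat1.
Bc1 (chr7:144914470-144914637, plus strand): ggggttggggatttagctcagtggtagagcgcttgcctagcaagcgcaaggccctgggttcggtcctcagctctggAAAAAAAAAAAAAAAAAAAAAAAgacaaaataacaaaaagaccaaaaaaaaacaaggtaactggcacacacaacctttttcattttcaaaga
Malat1 (chr19:5795690-5802672, minus strand): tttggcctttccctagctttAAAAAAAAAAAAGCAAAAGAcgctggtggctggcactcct
Neat1 (chr19:5824708-5845478, minus strand): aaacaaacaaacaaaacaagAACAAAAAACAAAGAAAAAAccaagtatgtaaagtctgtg
Rn18s-rs5 (chr17:39846958-39848788, plus strand): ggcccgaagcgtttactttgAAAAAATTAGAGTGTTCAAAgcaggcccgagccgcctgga
Rn7sk (chr9:78175303-78175633, minus strand): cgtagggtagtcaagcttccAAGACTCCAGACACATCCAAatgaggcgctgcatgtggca
Rpph1 (chr14:50807449-50807767, minus strand): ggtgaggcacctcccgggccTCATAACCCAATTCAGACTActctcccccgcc
Rmrp (chr4:43492783-43493063, minus strand): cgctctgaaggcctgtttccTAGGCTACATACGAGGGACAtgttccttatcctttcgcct
Neat1, 3′ end: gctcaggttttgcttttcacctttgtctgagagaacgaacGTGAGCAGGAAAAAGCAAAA

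Bc1 held an unbroken run of 23 A, and 0.437% of the 141767 transcripts in the annotation held a run as long. Malat1 had a run of 12 A (4.07% of transcripts) and 17 A in its richest window. That stretch is the A-rich tract near the mature 3′ end of Malat1, where RNase P cuts off a small RNA that resembles a transfer RNA. It lies 290 bases before the end of the annotated transcript. The long form of Neat1 is known to end in a tract of the same kind, shown above, and its richest window, with 17 A, lay 9390 bases from the annotated end. The other members had little: the longest run was 6 A in Rn18s-rs5, 3 A in Rn7sk, 3 A in Rmrp and 2 A in Rpph1, and 97.8% of all transcripts had a run of at least 3. Rn7sk, Rmrp and Rpph1 were rich in G and C, at 58.0, 63.7 and 67.1% of bases, against 40.5% in Bc1.

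The levels of the 7 RNAs spanned the whole range of the table. Rn18s-rs5 ranked between 1 and 3 among all rows in every library, with a mean of 24379 TPM over the 7 samples. Malat1 averaged 386.9 TPM, Bc1 218.9 TPM, Rn7sk 13.3 TPM and Neat1 2.46 TPM. Malat1 and Bc1 overlapped in their ranges, and the other neighbours in this order did not. Rpph1 and both rows of Rmrp were at or near 0 and stayed below the mean of 1 TPM required for the fit across all genes, so 5 of the 8 rows entered it. Together the 7 RNAs held 4.17, 2.63 and 3.54% of all TPM in P213L replicates 1 to 3. They held 1.69, 1.65, 1.36 and 2.47% in WT replicates 1 to 4. Nearly all of this was Rn18s-rs5. The members without it held 0.0583 to 0.0732% in P213L and 0.0461 to 0.066% in WT, ranges that overlapped.

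**Figure D1:**
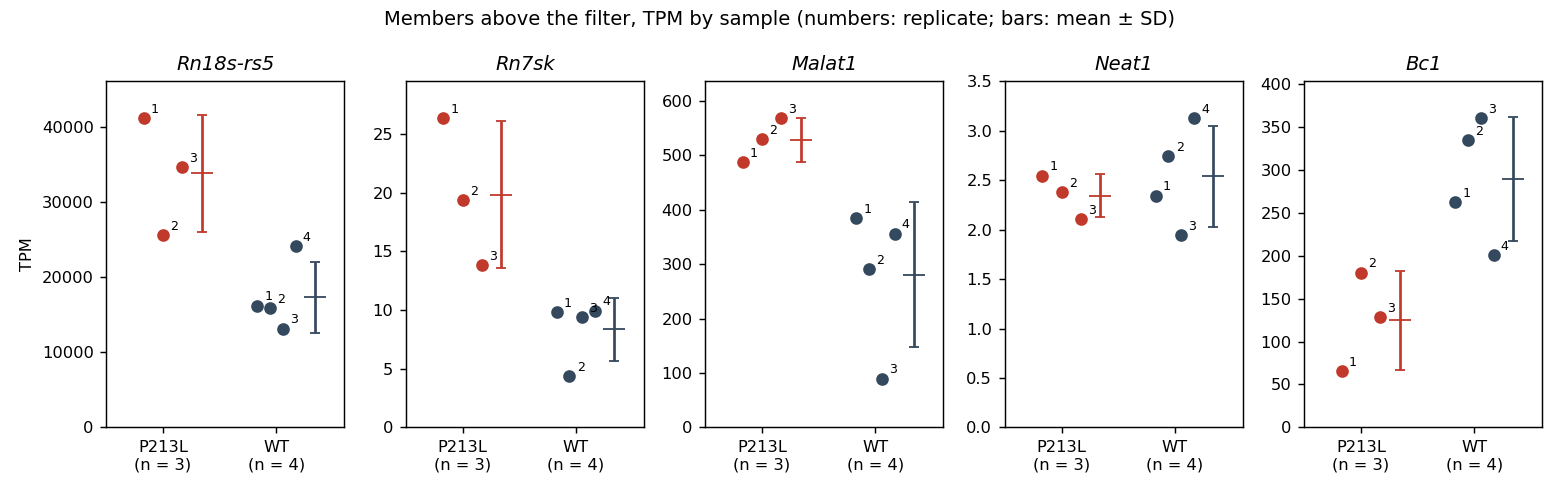
TPM (linear axes from 0, a separate scale in each panel) of the 5 members with a mean of at least 1 TPM, in 3 P213L and 4 WT samples. Points are samples numbered by replicate and bars are the mean ± SD; Rn18s-rs5, Rn7sk and Malat1 lie higher and Bc1 lower in all P213L samples, while the Neat1 values of the groups overlap.

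The ribosomal row was higher in P213L cortex. Rn18s-rs5 stood at 41151, 25564 and 34650 TPM in P213L replicates 1 to 3, against 16194, 15856, 13116 and 24125 TPM in WT replicates 1 to 4. All P213L values lay above all WT values, by a narrow margin between P213L replicate 2 and WT replicate 4. The means were 33789 ± 7829 TPM in P213L (SD, n = 3) and 17323 ± 4740 TPM in WT (SD, n = 4), a ratio of 1.95. The log2 fold change of P213L over WT was 0.97 ± 0.23 (SE, on the scale of log2(TPM + 0.5)). Quantile normalization, which gives every library the same set of values, brought it to 0.42. Ribosomal RNA genes are present in many near-identical copies, so which copy the reads came from is uncertain. The table does not say how such reads were assigned. RefSeq lists Rn18s-rs5 as a pseudogene at chr17:39846354-39848202 and gives Gm42418, the GENCODE gene shown above, as its synonym. Gm42418 lies at chr17:39846958-39848788, so the spans overlap only in part. The sequence, A runs and overlaps given here for Rn18s-rs5 are those of Gm42418, and which span the deposited row used is not given. A ribosomal RNA gene model, CT010467.1, covers the same 1831 bases on the opposite strand, and no value of it was used here.

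The row AY036118 comes from the opposite strand of the same locus and overlaps 923 bases of it. Whether the counting used the strand is not given, so reads from the shared stretch may not be told apart. AY036118 stood at 125.2, 111.5 and 121.7 TPM in P213L, against 179.7, 81.9, 226.3 and 105.9 TPM in WT. These ranges overlapped. The ratio of Rn18s-rs5 to AY036118 was higher in P213L, at 328.7, 229.2 and 284.6, than in WT, at 90.1, 193.7, 58.0 and 227.9. The ribosomal RNAs of mitochondria did not follow Rn18s-rs5. The small one, mt-Rnr1, stood at 3032 ± 1348 TPM in P213L and 4681 ± 1728 TPM in WT (SD, n = 3 and 4), and it was lowest, at 1609 TPM, in P213L replicate 1, where Rn18s-rs5 was highest. The 5S ribosomal RNA, made by RNA polymerase III, was listed at low values: 59 of its 72 rows were at 0 in every sample, and the highest averaged 3.07 TPM. How reads that fall on several copies were assigned is not given. The part of counting and of capture in these low values was not tested.

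Rn7sk was higher in P213L cortex as well. It stood at 26.4, 19.4 and 13.8 TPM in P213L replicates 1 to 3, against 9.81, 4.38, 9.38 and 9.93 TPM in WT replicates 1 to 4. No P213L value fell among the WT values, and WT replicate 2 was the lowest of all. The means were 19.8 ± 6.29 TPM in P213L and 8.37 ± 2.68 TPM in WT (SD, n = 3 and 4), a ratio of 2.37 and a log2 fold change of 1.22 ± 0.32 (SE). These levels rest on few reads. TPM multiplied by the transcript length has a most frequent low value in each library, called a counted unit here. Most low values fall on whole numbers of units or whole numbers plus 0.5. At the annotated length of 331 bases Rn7sk came, within 0.05, to whole numbers of units or whole numbers plus 0.5 in all 7 samples. It amounted to 170, 119.5 and 95.5 units in P213L and to 61.5, 27, 56.5 and 57 units in WT, and a whole library held an estimated 57.2 (WT replicate 3) to 79.4 (P213L replicate 3) times 1000000 units.

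Malat1 was higher in P213L cortex, and WT replicate 3 set much of the size of the difference. It stood at 488.2, 529.4 and 568.7 TPM in P213L replicates 1 to 3, against 385.2, 290.6, 89.9 and 356.5 TPM in WT replicates 1 to 4. All P213L values lay above all WT values, and WT replicate 3 lay far below the other WT samples. The means were 528.8 ± 40.2 TPM in P213L and 280.5 ± 133.1 TPM in WT (SD, n = 3 and 4), a log2 fold change of 1.11 ± 0.47 (SE). Without WT replicate 3 the WT mean was 344.1 ± 48.5 TPM (SD, n = 3) and the log2 fold change 0.63 ± 0.11 (SE). With 11420 to 82936 estimated units per library, Malat1 is measured far more precisely than Rn7sk, so counting error was a small part of its spread.

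Neat1, whose gene lies next to Malat1 on the same strand of chromosome 19, was nearly level between the groups. It stood at 2.55, 2.38 and 2.11 TPM in P213L replicates 1 to 3, against 2.34, 2.74, 1.94 and 3.13 TPM in WT replicates 1 to 4. The P213L values lay inside the range of the WT values. The means were 2.34 ± 0.221 TPM in P213L and 2.54 ± 0.51 TPM in WT (SD, n = 3 and 4), and the log2 fold change was -0.08 ± 0.18 (SE). The sign of this small value turned, to 0.007, without WT replicate 4. The replicate number as a block gave the same estimate, since no P213L sample shares the number of WT replicate 4. At its annotated length of 20771 bases Neat1 amounted to an estimated 914.7 to 1030 units in P213L and 735.1 to 1127 units in WT, more than Rn7sk and far fewer than Malat1. A short, polyadenylated form of Neat1 and the long form cannot be told apart in a value per gene.

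The ratio of Malat1 to Neat1 within a library does not depend on how libraries are scaled to each other. It was 191.8, 222.5 and 269.7 in P213L replicates 1 to 3, against 164.3, 105.9, 46.2 and 114.0 in WT replicates 1 to 4. All P213L ratios were higher than all WT ratios. The means were 228.0 ± 39.2 in P213L and 107.6 ± 48.4 in WT (SD, n = 3 and 4).

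Bc1 was the member that was lower in P213L cortex. It stood at 65.7, 180.3 and 128.4 TPM in P213L replicates 1 to 3, against 262.5, 334.3, 360.2 and 200.5 TPM in WT replicates 1 to 4. The groups did not overlap, with every P213L sample below every WT sample and P213L replicate 1 far the lowest. The means were 124.8 ± 57.4 TPM in P213L and 289.4 ± 72.2 TPM in WT (SD, n = 3 and 4), a ratio of 0.431 and a log2 fold change of -1.29 ± 0.35 (SE). Without P213L replicate 1 it was -0.89 ± 0.27 (SE). A length of 173 bases, and no other whole number of bases from 80 to 260, turned the Bc1 values, within 0.05, into whole numbers of units or whole numbers plus 0.5 in all 7 samples, against 168 bases in GENCODE vM21. At that length Bc1 amounted to 221.5, 581.5 and 464 units in P213L and to 860.5, 1078, 1134 and 601.5 units in WT. Bc1 is an RNA of neurons, and the summed level of 7 neuronal markers (Snap25, Rbfox3, Tubb3, Syt1, Stmn2, Slc17a7 and Gad1, none of them at 0) was 6417 to 6791 TPM in P213L and 6212 to 6942 TPM in WT. By log2 fold change 5 of the 7 were higher in P213L and 2 lower. Of the lower ones Snap25, a synaptic vesicle fusion protein gene, was lower in every P213L sample, as Bc1 was. It stood at 275.5, 312.9 and 290.1 TPM in P213L, against 317.7, 386.8, 388.2 and 369.9 TPM in WT (limma adjusted p = 0.827), and the groups of the other 6 markers overlapped. Tubb3 made up most of each sum, at 3799 to 4327 TPM in P213L and 3370 to 4228 TPM in WT. In WT replicate 3 Rbfox3, Syt1 and Slc17a7 stood at 100.3, 256.5 and 247.8 TPM, below every other sample, while Snap25 and Stmn2 were highest there. An even sum is thus not an even level of each marker. The ratio of Bc1 to Snap25 within a library was 0.239, 0.576 and 0.443 in P213L, against 0.826, 0.864, 0.928 and 0.542 in WT, groups that overlapped. Snap25 was picked for this ratio after its values were seen. No ratio of Bc1 to the other 6 markers was taken, so this overlap does not speak for neuronal markers in general. In bulk tissue fewer cells of a type and less RNA per cell cannot be told apart, and the part of cell composition in the Bc1 values was not tested.

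The RNA subunits of RNase MRP and RNase P were scarcely seen. Both rows of Rmrp are listed at 0 in all 7 samples. GENCODE vM21 holds 2 Rmrp gene models on the same strand, and they share 271 bases. A counter that discards reads falling on more than 1 gene would discard reads in that stretch, but the counting mode is not given in the sources used here, and its part in these zeros was not tested. Terc, the RNA of telomerase, also stands on 2 rows that are both at 0. Rpph1 is listed at 0 in all 3 P213L samples and in WT replicates 1 and 2, and at 0.0861 and 0.0904 TPM in WT replicates 3 and 4, which is 0.5 of a counted unit each. It overlaps 284 bases of Ccnb1ip1 on the same strand, a row that averaged 0.0266 TPM.

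Of the 5 members above the filter, 0 passed an adjusted p of 0.05 in the limma fit across all rows, where 0% of 17582 rows did. At an unadjusted p under 0.05 there were 4 (Rn18s-rs5, Rn7sk, Malat1 and Bc1), where 3.74% of all rows were past that value. The count was 3 in 8 of 19 alternative settings, namely no filter, quantile normalization, mitochondrial rows removed, no variance trend, and each P213L replicate or WT replicate 2 left out. The groups did not overlap for the same 4, against 8.69% of all rows: 3 were higher in P213L (5.94% of all rows) and 1 was lower (2.75%). A log2 fold change of at least 0.9 in size, also reached by these 4, was found in 1.62% of all rows. Since the members were chosen with these values known, nothing about them follows from their counts. The 4 differences kept their sign, and the groups did not overlap, with the libraries rescaled by the median of ratios, without mitochondrial rows, or with the members left out of the total.

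**Figure D2:**
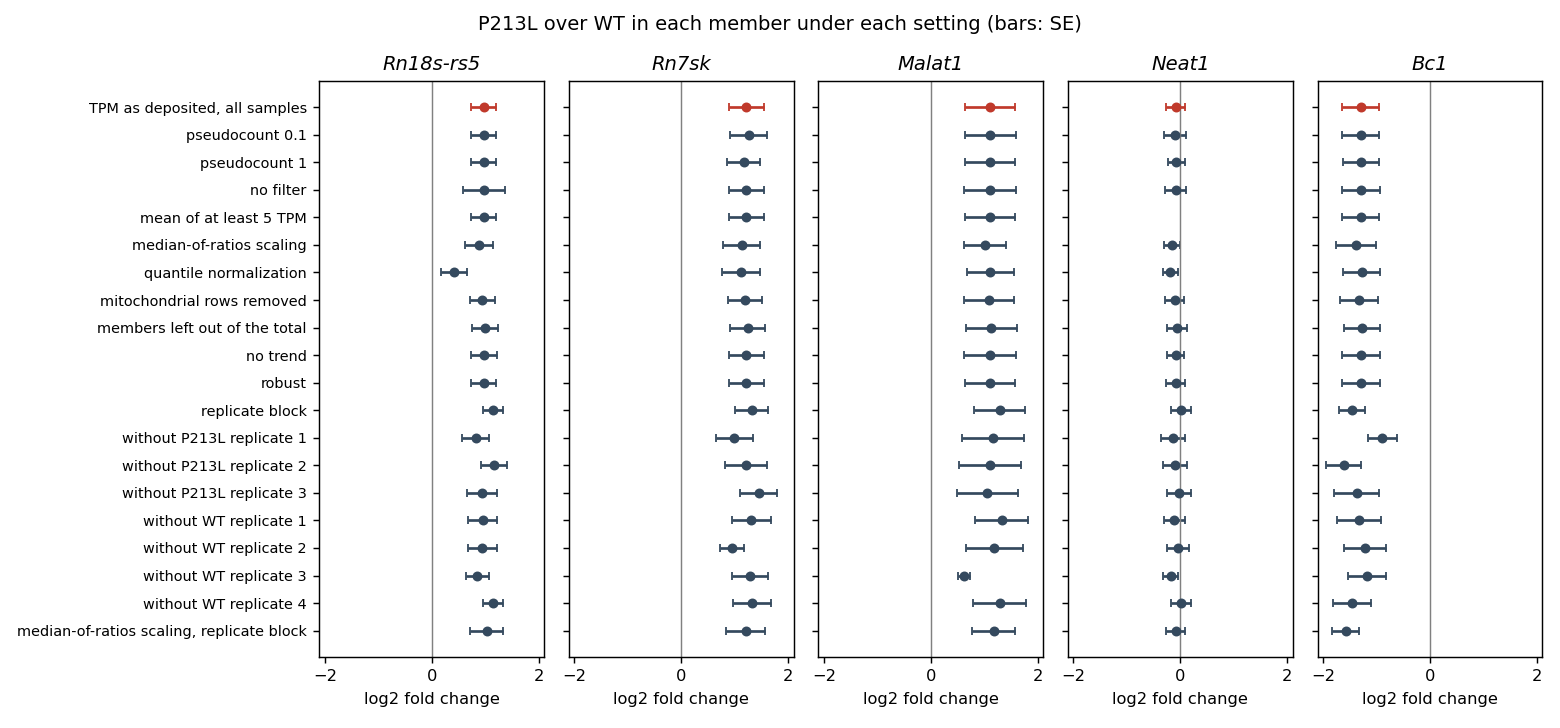
log2 fold change of P213L over WT (horizontal axis; points, with bars of 1 SE) for the 5 members, one setting per line and the values as reported in red at the top. Rn18s-rs5, Rn7sk and Malat1 stay above 0 and Bc1 below 0 in every setting drawn, and Neat1 stays near 0.

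Some members also varied together from library to library, most closely Rn18s-rs5 and Bc1. The 7 samples stood in exactly opposite order for these 2 RNAs. P213L replicate 1 had the most Rn18s-rs5 and the least Bc1, followed by P213L replicate 3, P213L replicate 2, WT replicate 4, WT replicate 1, WT replicate 2 and WT replicate 3. Pearson's r of the log2 values was -0.96 and Spearman's rho -1 over the 7 samples. Within the groups the relation was similar, with r = -0.88 for the deviations of each sample from its group mean. Without the 2 samples farthest from the median of Rn18s-rs5 (WT replicate 3 and P213L replicate 1) r was -0.98, and with any 1 sample left out it lay between -0.98 and -0.95. With quantile normalization it was -0.66. This is the closest of 10 pairs, and the 7 points share the scaling of their library and are split between the groups.

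**Figure D3:**
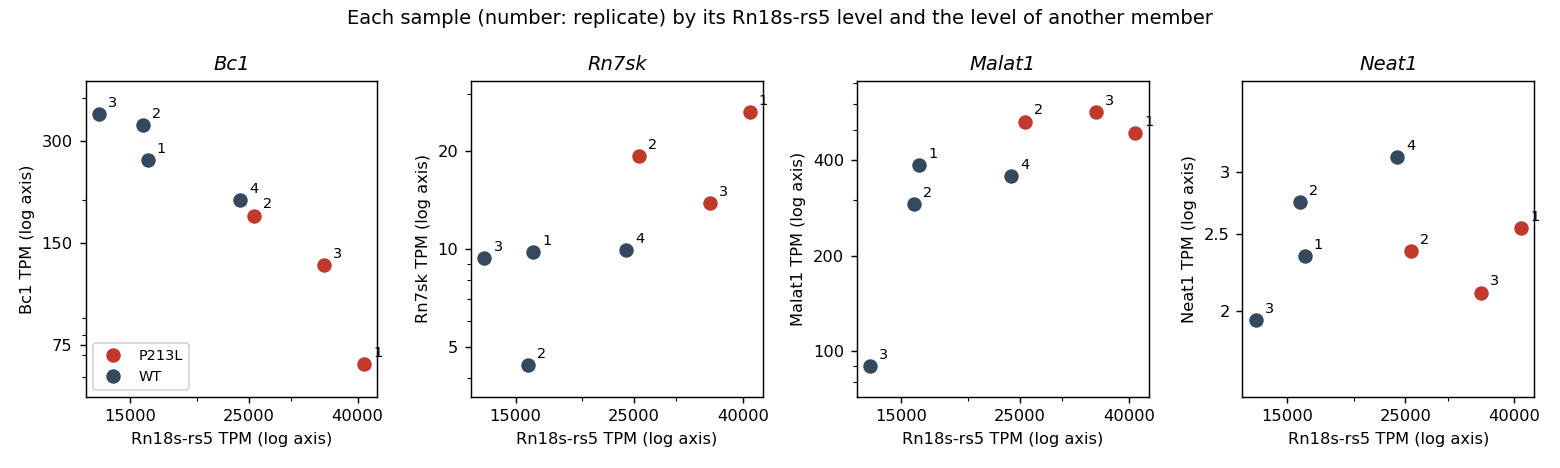
Each of the 7 samples (points, numbered by replicate; P213L in red, WT in dark blue) by its Rn18s-rs5 TPM on the horizontal log axis and the TPM of Bc1, Rn7sk, Malat1 or Neat1 on the vertical log axis. Bc1 is lower the higher Rn18s-rs5 is, with 65.7 TPM in P213L replicate 1 and 360.2 TPM in WT replicate 3 at the ends, while Neat1 shows no such order.

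Rn7sk and Malat1 ran in the same direction as Rn18s-rs5, largely through the difference between the groups. Rn18s-rs5 and Rn7sk had r = 0.77 and rho = 0.93, but the deviations from the group means had r = 0.26. Rn18s-rs5 and Malat1 had r = 0.76 and rho = 0.86, with r = 0.52 for the deviations. Without the 2 samples farthest from the median of Rn18s-rs5 these pairs had r = 0.71 and 0.82. Rn7sk and Malat1 had r = 0.47, with r = -0.14 for the deviations, and r = 0.85 without WT replicate 3. Rn7sk and Bc1 ran in opposite directions (r = -0.84, rho = -0.93, r = -0.52 for the deviations), as did Malat1 and Bc1 (r = -0.67, rho = -0.86, r = -0.32 for the deviations).

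Neat1 had no close relation to another member over the 7 samples. With Rn18s-rs5 it had r = 0.17, with Rn7sk -0.18 and with Bc1 -0.11. With Malat1 it had r = 0.35 and rho = -0.11, and r turned to -0.71 without WT replicate 3, the sample in which both were lowest. Its deviations from the group means ran with those of Rn18s-rs5 (r = 0.71) and Malat1 (r = 0.68) and against those of Bc1 (r = -0.52). Of the 10 pairs of the 5 RNAs, 5 had r above 0.

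**Figure D4:**
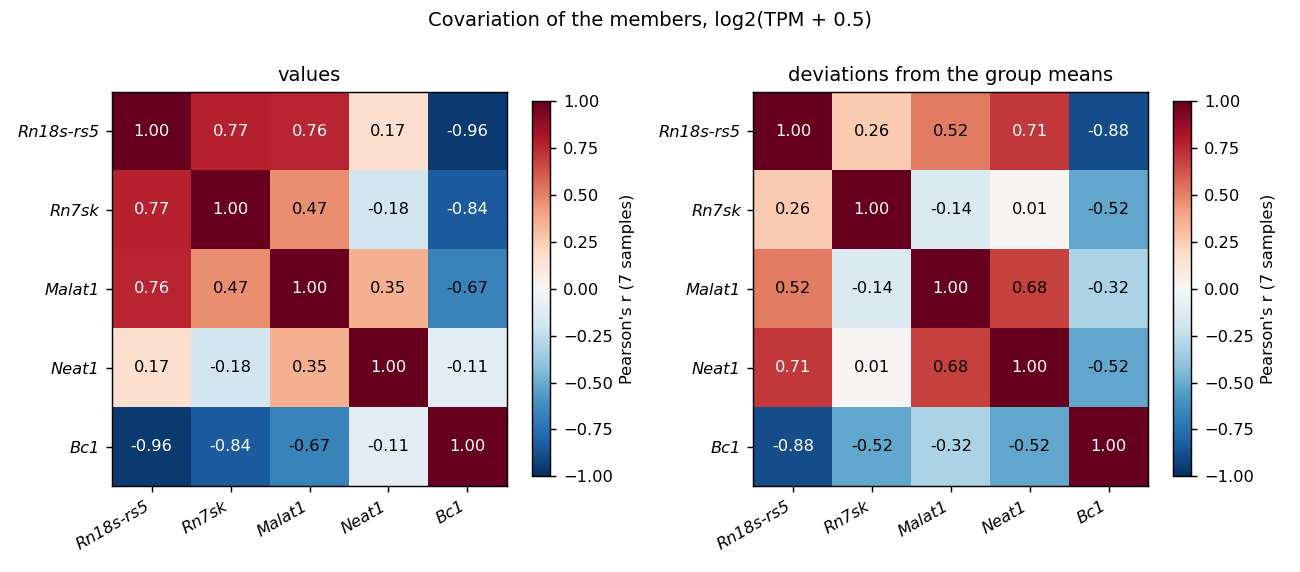
Pearson's r over the 7 samples for each pair of the 5 members, from log2(TPM + 0.5) on the left and from deviations from the group means on the right (colour scale from -1 to 1). Rn18s-rs5 and Bc1 stay at -0.96 and -0.88, while Rn7sk and Malat1 go to -0.14 once the group means are removed.

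The rows with the pattern most like that of each member, by Pearson's r of log2 values over the 7 samples among 14269 named rows, differed between members. For Rn18s-rs5 they were P2rx2 (r = 0.98), which encodes an ATP-gated ion channel, and the small nucleolar RNAs Snord85 (r = 0.98) and Snord116l12 (r = 0.97). Snord85 stood at 3.52, 1.10 and 1.97 TPM in P213L, against 0.362, 0, 0 and 0.79 TPM in WT. Snord116l12 stood at 3.82, 0.856 and 2.80 TPM in P213L, against 0.561, 0.285, 0 and 1.23 TPM in WT. Values this near 0 may rest on few reads, and their counted units were not estimated. For Bc1 they were Camk2n1 (r = 0.98), which encodes an inhibitor of the kinase CaMKII, Cisd2 (r = 0.98) and Snai2 (r = 0.97). Camk2n1 stood at 375.9, 467.8 and 431.9 TPM in P213L, against 524.8, 562.9, 612.0 and 503.8 TPM in WT. Its groups did not overlap, as was so for 8.69% of all rows. Camk2n1 was picked for its likeness to Bc1 over these same samples, so its split between the groups adds nothing to that of Bc1. For Rn7sk the nearest was Hdac8, a histone deacetylase gene (r = 0.98), and then Nudt17 and Cd151 (r = 0.96 each). For Neat1 they were Emc3 (r = 0.97), D6Wsu163e and Fkbp5 (r = 0.96 each).

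A pattern like that of Malat1 was common in the table, and this rested on WT replicate 3. At r of at least 0.9 it had 3321 rows with a like pattern (18.9% of 17581), against 39 for Rn18s-rs5, 48 for Rn7sk, 63 for Neat1 and 79 for Bc1. The nearest were Sh3d21 and Slc22a5, a carnitine transporter gene (r = 0.997 each), and Zfta. Without WT replicate 3, 246 rows (1.40%) were at that r for Malat1, against 97 for Rn18s-rs5, 307 for Rn7sk, 177 for Neat1 and 278 for Bc1. Zfta shows the shared shape, at 133.1, 129.8 and 137.2 TPM in P213L and at 116.4, 94.8, 52.3 and 102.8 TPM in WT, lowest in WT replicate 3. That library stood apart across the table: its correlation with the other 6 was 0.943 to 0.949, against 0.981 to 0.992 among those 6, and 28367 rows were above 0 in it, against 31387 to 32526.

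Proteins and RNAs that work with the members were examined in 10 lists of 133 genes, of which 108 were above the filter. In the limma fit across all rows 0 of the 108 passed an adjusted p of 0.05, with a smallest adjusted p of 0.827, and 0 had an unadjusted p under 0.05. Without WT replicate 3 the 2 counts were 0 and 3. Over all tested rows the median log2 fold change was 0.07 and 63.4% of rows were higher in P213L, and without WT replicate 3 the median was -0.002.

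Partners of 7SK RNA were 7 of 8 higher and 1 lower, with a median log2 fold change of 0.12. Hexim1, the protein through which 7SK inhibits P-TEFb, stood at 59.4 ± 1.48 TPM in P213L and 53.4 ± 1.66 TPM in WT (SD, n = 3 and 4; limma adjusted p = 0.827). Mepce, which caps 7SK, stood at 46.3 ± 2.77 TPM in P213L and 42.7 ± 2.58 TPM in WT. Without WT replicate 3 the count was 4 of 8 higher. Protein subunits of RNase P and RNase MRP were 2 of 11 higher, with a median of -0.04, and 8 of 11 higher without WT replicate 3. Pop1, the largest of them, stood at 13.1 ± 1.17 TPM in P213L and 10.4 ± 2.62 TPM in WT. Its log2 fold change was 0.35, and 0.16 without WT replicate 3. The messenger RNAs of all 11 protein subunits were above the filter, and the RNA subunits were not.

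Paraspeckle proteins, which assemble on Neat1, were 7 of 12 higher, with a median log2 fold change of 0.02. Sfpq had the smallest p of all 108 genes and stood at 268.5 ± 11.4 TPM in P213L and 228.6 ± 19.5 TPM in WT, a log2 fold change of 0.23 ± 0.10 (SE; limma adjusted p = 0.827). Its partner Nono stood at 180.0 ± 6.88 TPM in P213L and 158.5 ± 18.0 TPM in WT, a log2 fold change of 0.19. Without WT replicate 3 these were 0.17 for Sfpq and 0.11 for Nono. Proteins of nuclear speckles, where Malat1 resides, were 6 of 9 higher, with a median of 0.08, but 4 of 9 higher, with a median of -0.03, without WT replicate 3. Srrm2, a scaffold of speckles, stood at 161.9 ± 3.18 TPM in P213L and 121.8 ± 52.2 TPM in WT, a log2 fold change of 0.56 ± 0.41, and 0.14 without WT replicate 3. The 6 proteins listed as binding Bc1 were 1 higher and 5 lower, with a median of -0.03. Purb in that list stood at 172.9 ± 32.6 TPM in P213L and 206.5 ± 41.2 TPM in WT. Its log2 fold change was -0.25, and -0.36 without WT replicate 3.

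The machinery that makes and degrades these RNAs showed no call either. Genes of RNA polymerase I and ribosomal RNA processing were 9 of 14 higher, with a median of 0.03. Ncl, the nucleolar protein nucleolin, stood at 123.8 ± 6.53 TPM in P213L and 137.5 ± 13.3 TPM in WT, and Taf1c, a polymerase I initiation factor, at 20.9 ± 1.17 TPM in P213L and 16.7 ± 4.33 TPM in WT. Without WT replicate 3 the log2 fold change went from -0.15 to -0.09 for Ncl and from 0.35 to 0.21 for Taf1c. Genes of RNA polymerase III, which makes 7SK, Bc1, Rmrp and Rpph1, were 15 of 24 higher, with a median of 0.03 and a range of -0.24 to 0.39. Without WT replicate 3 they were 12 of 24 higher, with a median of -0.004. Genes of the nuclear exosome, which trims and degrades nuclear RNA, were 7 of 13 higher, with a median of 0.04. Exosc9 in it stood at 17.3 ± 0.96 TPM in P213L and 21.8 ± 3.97 TPM in WT. Its log2 fold change was -0.31, and -0.19 without WT replicate 3.

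**Figure D5:**
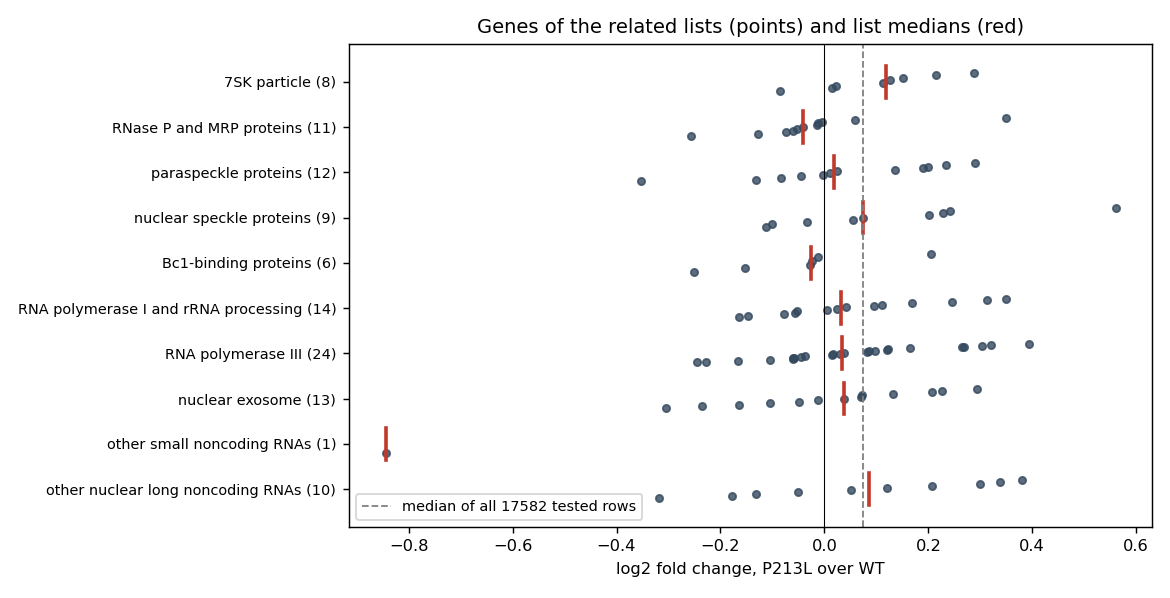
log2 fold change of P213L over WT for each tested gene of the 10 lists (points; number tested in brackets), with the list medians in red and the median of all tested rows as a dashed line. Srrm2 in the speckle list, at 0.56, and the small nuclear RNA Rnu1a1, at -0.84, lie farthest from 0.

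The other small noncoding RNAs of the list that had a row were low or at 0. Of 24 listed small RNAs 17 had a row, among them spliceosomal, Y, vault, 7SL and telomerase RNAs. Of these 9 were at 0 in every sample, and Rnu1a1 alone averaged over 1 TPM. The small nucleolar RNAs in the list had no row under the symbols used, so it does not cover that class. Snord85 and Snord116l12, given above, were not in the list. Rnu1a1 stood at 0.157, 1.64 and 0.584 TPM in P213L, against 1.93, 0.818, 2.01 and 1.76 TPM in WT, groups that overlapped. Rn7s1, a copy of the abundant 7SL RNA, was at 0 throughout. Of 12 other long noncoding RNAs listed, 10 were tested, with 6 higher and 4 lower, a median log2 fold change of 0.09 and -0.04 without WT replicate 3. Miat, another nuclear long RNA of neurons, stood at 250.6 ± 10.3 TPM in P213L and 208.3 ± 71.1 TPM in WT, a log2 fold change of 0.34 ± 0.27 (SE; limma adjusted p = 0.827), and 0.09 without WT replicate 3. Within each library Malat1 stood at 1.87, 2.20 and 2.27 times the level of Miat in P213L, against 1.34, 1.51, 0.755 and 1.52 times in WT.

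Markers of other cells and tissues were read beside these results. The cortex was neuronal by its markers, as given above. Genes of the oligodendrocyte lineage (6 markers) summed to 180.5 to 197.0 TPM in P213L and 241.3 to 270.9 TPM in WT, and microglial markers (5) to 145.3 to 147.0 TPM in P213L and 148.4 to 177.1 TPM in WT. Meningeal markers (4) summed to 103.9 to 164.5 TPM in P213L and 58.7 to 111.2 TPM in WT, and erythroid markers (5) to 460.3 to 600.1 TPM in P213L and 415.0 to 902.8 TPM in WT. Choroid plexus markers (4) summed to 1235 TPM in WT replicate 2 and to at most 5.71 TPM in the other 6 samples. Astrocyte markers (5) summed to 826.8 to 905.6 TPM in P213L and 685.3 to 1123 TPM in WT. Endothelial markers (4) summed to 252.6 to 270.0 TPM in P213L and 236.1 to 356.5 TPM in WT. Striatal markers (5) summed to 385.4 to 422.6 TPM in P213L and 372.4 to 508.8 TPM in WT. The groups overlapped for astrocyte, endothelial and striatal markers. No marker of these lists was at 0 in all samples. The share of TPM in mitochondrial transcripts was 4.17 to 6.89% in P213L and 5.58 to 8.51% in WT. The part of these differences in the levels of the 7 RNAs was not tested.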

How the data were processed

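Total RNA was extracted with TRIzol, and the stranded mRNA kit named in the labels' protocols selects poly(A) RNA. The submitters' processing notes list mm10, HISAT2 and HTSeq. Not given in the sources used here: versions, annotation, gene lengths and counting mode. The deposited table holds the authors' TPM of each gene in each sample, with a total of 1000000 in every column, so TPM holds no read total and an abundant RNA that differs between libraries shifts all other values. Rows were matched to members by symbol, and 147 symbols stand on more than 1 row.

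The values were analysed as log2(TPM + 0.5) for rows with a mean of at least 1 TPM with limma 3.58.1 (R 4.3.3). Its moderated two-sided test used a trended variance, and p-values were adjusted by Benjamini and Hochberg's method over all 17582 rows, with a threshold of 0.05. A fold change on this scale understates the change of low genes. The fit was tested on simulated data. Counted units were estimated by multiplying TPM by the exon length in GENCODE vM21 (unique symbols for 85.9% of rows) and taking the most frequent low value of each library as 1 unit. A distance of at most 0.05 from a whole number, or from a whole number plus 0.5, was found for 95.1 to 96.1% of values up to 10 units. Precision of each library is limited by its estimated units, 57.2 to 79.4 times 1000000, which are not molecules. Sequences and A runs were read from GENCODE vM21 transcripts, and RefSeq (GRCm38.p6) gave the synonym of Rn18s-rs5. Python 3.11.15, pandas 2.3.3 and matplotlib 3.10.9 were used.

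Samples were grouped by title. The members and lists were chosen with earlier results of these data known. Named were all members, genes with the smallest p in each list (at most 3) and the 3 rows most like each member, leaving out gene models and clones. AY036118, the mitochondrial and 5S ribosomal rows, Terc, Rn7s1, Snap25 and Ccnb1ip1 were named after their values were seen. A further gene that the rule names is not reported here. The alternatives were other pseudocounts, filters, scalings and variance models, a replicate block and each sample left out. The block together with median-of-ratios scaling, and the count of like rows without WT replicate 3, were added after seeing the data.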

Additional observations from a re-analysis of the deposited data

Results flagged for a closer look

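In the WT group of 4, samples far from the other 3 were looked for in 69 measures, and 5 were found. Chance flags about 1 in 20 such groups. Rn7sk stood at a log2(TPM + 0.5) of 2.29 in WT replicate 2, below the other WT samples. In WT replicate 3 the speckle genes Srrm2 and Srrm1 stood at 5.52 and 5.38, each far below the other 3. The small nuclear RNA Rnu1a1 stood at 0.40 in WT replicate 2. The log2 sum of the choroid plexus markers was 10.3 in WT replicate 2, far above the rest.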

How the results depend on the processing

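The count of rows past the threshold was 0, and so was that of related-list genes, in every setting of the limma fit, with 266 to 1836 rows at an unadjusted p under 0.05 against 657 as reported. It was 1836 without a filter, 361 at a mean of at least 5 TPM and, with 1 sample left out, 266 without P213L replicate 1 up to 1574 without WT replicate 1 and 1528 without WT replicate 3. The share of these rows higher in P213L was 63.2%, 51.9% after scaling by the median of ratios, 49.4% after quantile normalization and 53.3% without mitochondrial rows. The summed share of the 7 members differed by 1.66 percentage points and by 0.599 with quantile normalization, which replaces the highest value of each library by the same number. It ran from 1.29 to 2.06 with 1 sample left out. Over all settings the log2 fold change ran from 0.42 to 1.16 for Rn18s-rs5, 0.95 to 1.45 for Rn7sk, 0.63 to 1.32 for Malat1, -0.19 to 0.007 for Neat1 and -1.61 to -0.89 for Bc1. With the replicate block 500 rows had an unadjusted p under 0.05 and Bc1 had -1.45. The block takes up WT replicate 4, which has no P213L sample of its number. Its fold changes for the members are therefore those without WT replicate 4. Same-numbered samples deviated together with r = 0.13, 0.17 and -0.10, and differently numbered samples of the 2 groups with r = -0.24 to 0.12. Whether samples of the same number share more than the number was not tested. Rn7sk, at 27 units in its lowest sample, and Rpph1 are limited by depth.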
